A study of Rattus norvegicus with 16 samples.

Results

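Brown adipocytes are fat cells that burn lipid to make heat. The 5 genes described here, Ucp1, Cidea, Elovl3, Dio2 and Ppargc1a, were chosen by name as genes characteristic of these cells, and each is represented by its brightest probe set on average over the 16 arrays. The platform annotation used here named a probe set for 4 of the 5 genes, out of 14324 genes named in all, and Cidea was not analysed here. Of the 4 genes, 3 passed the filter on low signal (Elovl3, Dio2 and Ppargc1a) and Ucp1 did not.

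The arrays measured total RNA from the mammary glands of Wistar Han female rats whose mothers had been dosed by gavage. Dosing was daily, starting on gestational day 1 and ending at weaning on postnatal day (PND) 21. The dams received genistein (a soy phytoestrogen), vinclozolin (a fungicide whose metabolites block the androgen receptor) or the mixture of both. Dams on genistein or vinclozolin alone received 1 mg per kg of body weight a day. Mixture dams received 1 mg per kg of genistein plus 1 mg per kg of vinclozolin a day. The control is labelled untreated, dams were in groups of 15 and female offspring in groups of 20, and every rat ate a phytoestrogen-free purified diet. The daughters, 1 per litter, were killed at PND50 or PND35, and each array carried RNA pooled from 5 animals. There were therefore 8 groups of 2 pools: genistein, vinclozolin, mixture and control at PND50, and the same 4 at PND35. With 2 pools per group, precision is limited by how few arrays there are, and p-values measure only the spread between pools of animals. Whether litters were shared between the ages is not known here, and the age comparisons treat the pools as independent. Values are log2 probe set intensities, and differences are log2 fold changes. Over all genes the replicate pools of a group correlated at 0.989 to 0.997, and the SD of the difference between replicates was 0.303 in the vinclozolin PND35 group, against 0.170 to 0.206 in the other 7 groups.

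In a brown fat cell, noradrenaline acts on beta-adrenergic receptors and raises cyclic AMP, which releases fatty acids and switches on heat-producing genes. Ppargc1a encodes the transcriptional coactivator PGC-1alpha, which drives mitochondrial biogenesis and joins nuclear receptors at the promoters of those genes. Dio2 encodes the deiodinase that makes active thyroid hormone inside the cell, Ucp1 encodes the inner-membrane protein that lets protons leak back and so gives heat, Cidea encodes a lipid droplet protein, and Elovl3 encodes an enzyme that lengthens saturated and monounsaturated fatty acids. Ucp1 is largely limited to brown and beige fat cells, and the others are not: in the mouse, Elovl3 is also made in the hair follicle and the sebaceous gland, and Ppargc1a is also made in skeletal muscle. The rat mammary gland of this age lies in a white fat pad, so its RNA holds that of many cell types, and in such bulk RNA fewer cells of a type and less RNA per cell cannot be told apart.

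Sequence upstream of 3 of the genes is shown because Elovl3 was the only member called in any comparison, and Ucp1 and Ppargc1a are the classic output and driver of the heat programme beside which it can be read. Each is the 250 bases before the RefSeq gene start in build GRCr8, 5′ to 3′ on the gene's strand. Capitals mark matches on either strand to the TATA box (TATAAA), the palindromic cyclic AMP response element (TGACGTCA) or the CCAAT box (CCAAT, written ATTGG where it lies on the other strand).
Elovl3, chr1:254938481-254938730, plus strand: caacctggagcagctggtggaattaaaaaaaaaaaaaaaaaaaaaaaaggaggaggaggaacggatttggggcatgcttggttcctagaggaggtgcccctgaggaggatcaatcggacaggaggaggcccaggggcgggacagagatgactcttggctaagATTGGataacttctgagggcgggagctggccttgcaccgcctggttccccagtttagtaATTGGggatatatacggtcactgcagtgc
Ucp1, chr19:41721422-41721671, minus strand: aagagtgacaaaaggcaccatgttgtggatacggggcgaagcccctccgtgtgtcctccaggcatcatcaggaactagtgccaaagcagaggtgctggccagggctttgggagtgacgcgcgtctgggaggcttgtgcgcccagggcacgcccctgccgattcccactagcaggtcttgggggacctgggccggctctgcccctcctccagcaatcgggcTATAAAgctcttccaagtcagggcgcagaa
Ppargc1a, chr14:63634058-63634307, plus strand: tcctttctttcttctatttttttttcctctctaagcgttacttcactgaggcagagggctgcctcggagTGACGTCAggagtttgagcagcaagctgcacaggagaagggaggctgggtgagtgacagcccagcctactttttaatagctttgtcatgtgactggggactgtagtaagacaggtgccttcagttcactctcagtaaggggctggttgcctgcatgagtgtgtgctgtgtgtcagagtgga

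The Ucp1 window held a TATA box whose first base was at -30, counting back from the gene start. The Ppargc1a window held a cyclic AMP response element beginning at -181, and the Elovl3 window held 2 CCAAT boxes on the other strand, at -88 and -29. Among the 27457 windows of the same length, 13.09% held a TATA box, 1.697% a cyclic AMP response element and 34.29% a CCAAT box. The Dio2 window, chr6:115410595-115410844 on the minus strand, held a TATA box at -220. These matches describe letters in a window and were not set against any binding data.

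All 4 probe sets lay in the lower part of the array's intensity range. Averaged over 16 arrays, Ucp1 was at 5.20, brighter than 18.4% of the probe sets, Elovl3 at 5.71 (25.7%), Ppargc1a at 5.86 (28.1%) and Dio2 at 6.06 (31.6%). The filter, the 25th percentile of probe set means, stood at 5.66. Brightness depends on the probes as well as on the transcript, so these values do not rank the genes against each other, and no detection calls were used. The probe sets of 20 white adipocyte genes, such as Adipoq and Fabp4, lay between the 73.1st and 99.8th percentile with a median at 96.8, those of 15 luminal epithelial genes, such as Krt8 and Epcam, between the 69.6th and 98.9th, and those of 17 further brown fat genes between the 10.7th and 95.3rd with a median at 60.0. The label "brown adipocyte" names the genes' usual role. The probe set of the gene that defines these cells, Ucp1, was dim in every pool of this tissue, and whether such cells were present was not tested.

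Elovl3, the fatty acid elongase, was the gene that differed between groups, and it did so through the vinclozolin PND35 group. At PND50, Elovl3 was at 5.64 and 5.28 in the genistein pools, 5.51 and 5.60 in the vinclozolin pools, 5.40 and 5.58 in the mixture pools and 5.40 and 5.57 in the control pools. At PND35, it was at 5.46 and 5.40 in the genistein pools, 7.85 and 6.50 in the vinclozolin pools, 5.51 and 5.35 in the mixture pools and 5.54 and 5.70 in the control pools. Both vinclozolin PND35 pools were above all the other 14, which spanned 0.418, and these 2 pools differed from each other by more than the other 14 did. Over all 14324 named genes, 1.82% had both vinclozolin PND35 pools above the other 14. The mean of the other 14 pools was 5.50, under the filter, so Elovl3 was tested only because of the 2 pools in which it was high.

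At PND35, Elovl3 averaged 7.17 ± 0.96 in vinclozolin pools and 5.62 ± 0.11 in control pools (SD, n = 2 each). The difference was 1.55 on the log2 scale (SE 0.30), a 2.93-fold rise with a 95% interval of 1.85 to 4.64 in the filtered fit. Its adjusted p was 0.0289 by limma with Benjamini-Hochberg adjustment over all 14324 genes, without the filter. Over the 11796 genes that passed the filter, which Elovl3 did only through these pools, it was 0.0307. The SE, interval and p-values rest on 1 spread shared by all groups. The Elovl3 SD was 0.96 in the vinclozolin PND35 pools and 0.04 to 0.25 in the other groups. They therefore understate the spread of the vinclozolin PND35 pools. In the filtered fit of that comparison 1.34% of genes were called, 0.966% higher and 0.373% lower in vinclozolin pools. The size depended on the pool: it was 0.87 without vinclozolin replicate 1 and 2.23 without vinclozolin replicate 2. Each of these fits lacked the spread between the 2 vinclozolin pools (SD 0.96), so their p-values are not given. The call was lost in 8 of the 16 fits that each left out 1 pool. These left out either control PND35 pool or either pool of control, vinclozolin or mixture at PND50. The PND50 pools are not part of this difference, which stayed at 1.55 without any 1 of them. Leaving 1 of them out changed only the shared spread, its degrees of freedom and the adjustment over all genes.

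Other comparisons share the vinclozolin PND35 pools and are given side by side, as they are not independent of the rise over control. Their SEs and p-values use the same shared spread, with the same limit. Within vinclozolin-exposed rats, Elovl3 averaged 5.56 ± 0.06 at PND50 and 7.17 ± 0.96 at PND35 (SD, n = 2 each), and fell by 1.62 (SE 0.30, limma adjusted p = 0.0197 without the filter and 0.0196 with it, 2.78% of genes called). Without either vinclozolin PND50 pool this call was lost. At PND35, the mixture pools averaged 5.43 ± 0.11 and the vinclozolin pools 7.17 ± 0.96 (SD, n = 2 each), a difference of -1.74 (SE 0.30, limma adjusted p = 0.0117 without the filter and 0.0132 with it, 2.61% of genes called), and this call was lost without mixture PND35 replicate 2. The vinclozolin effect at PND50 minus that at PND35 was -1.48 for Elovl3 (SE 0.43), with an unadjusted p of 0.00502 but an adjusted p of 0.432 by limma (0.423 without the filter), so the difference between ages did not pass, where 0.381% of genes did. Without vinclozolin PND35 replicate 2 this difference was -2.16. That fit lacked the spread between the 2 vinclozolin PND35 pools, so its p-value is not given.

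Averaged over the 4 exposures, Elovl3 was -0.41 at PND50 relative to PND35 (SE 0.15, limma adjusted p = 0.0464 without the filter and 0.0434 with it), in a comparison that called 44.6% of genes, 19.4% higher and 25.2% lower. This call rested on the vinclozolin PND35 pools: without both, the difference was -0.01 with an adjusted p of 0.878, an alternative added after the values were seen. Leaving out 1 pool at a time, the call was lost in 13 of 16 fits. In the other 7 groups, Elovl3 means lay between 5.43 and 5.62.

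**Figure D1:**
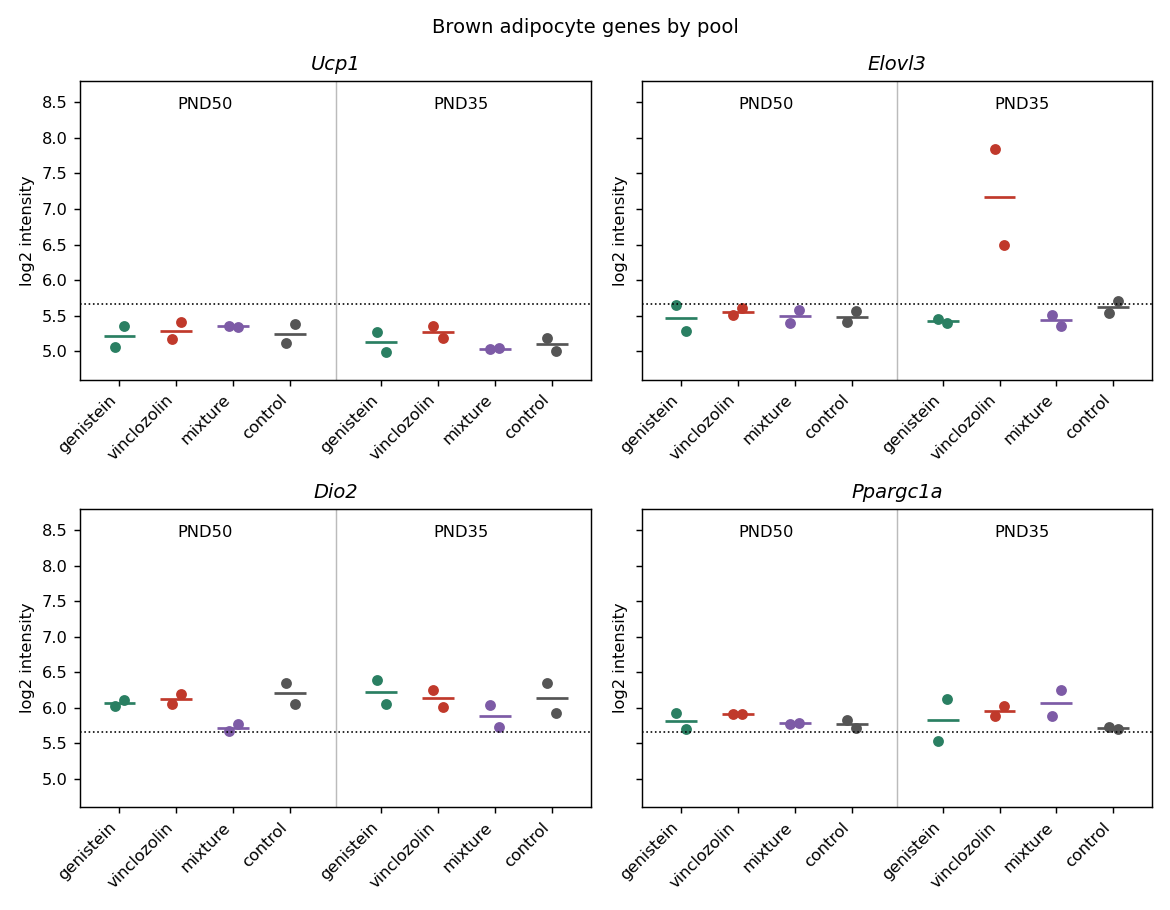
Log2 intensity of Ucp1, Elovl3, Dio2 and Ppargc1a in each pool, with PND50 groups left of PND35 groups; each point is 1 pool, each bar the mean of 2 pools, and the dotted line is the filter at 5.66. The vinclozolin PND35 pools stand out for Elovl3, at 7.85 and 6.50, while all Ucp1 points lie under the filter.

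Hair follicle genes were high in the same 2 pools as Elovl3. A list of 21 named hair follicle genes (hair keratins, Padi3, Tgm3, Dsg4, Foxn1 and the like) and 1 of 12 named sebaceous gland genes were put together after the values were seen, so they are described without a test. Of the 21 hair follicle genes, 19 had both vinclozolin PND35 pools above the other 14, beside the 1.82% of all genes. Krt25, a keratin of the hair's inner root sheath, was at 10.48 and 10.59 in the vinclozolin PND35 pools, against 4.86 to 5.36 in the other 14. The mean centred level of the hair list was 2.12 and 1.56 in vinclozolin PND35 replicates 1 and 2, against -0.41 to -0.19 in the other pools. Its part in the Elovl3 result was not tested.

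The mean centred level of the sebaceous list did not follow Elovl3 pool by pool. It was 0.09 and 0.70 in vinclozolin PND35 replicates 1 and 2, against -0.17 to 0.02 in the other pools. It was thus higher in the replicate in which Elovl3 was lower. Single genes of the list differed: 5 of 12 were above all other 15 pools in replicate 2, and 2 (Dgat2l6 and Scd) in replicate 1. The part of this list in the Elovl3 result was not tested. Of the 12 named genes, 2 had both vinclozolin pools above the other 14 (Mc5r and Elovl5). Soat1, which esterifies cholesterol, was at 8.18 and 10.87 in those pools, against 7.94 to 8.38 in the other 14, and Mc5r, the melanocortin receptor of sebaceous cells, at 6.10 and 7.46. Of the fat lists, 0 of 17 further brown fat genes and 0 of 20 white adipocyte genes had both vinclozolin PND35 pools above the others. The white adipocyte level was 0.21 and -0.26 in the vinclozolin PND35 pools, against -0.26 to 0.29 elsewhere.

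**Figure D2:**
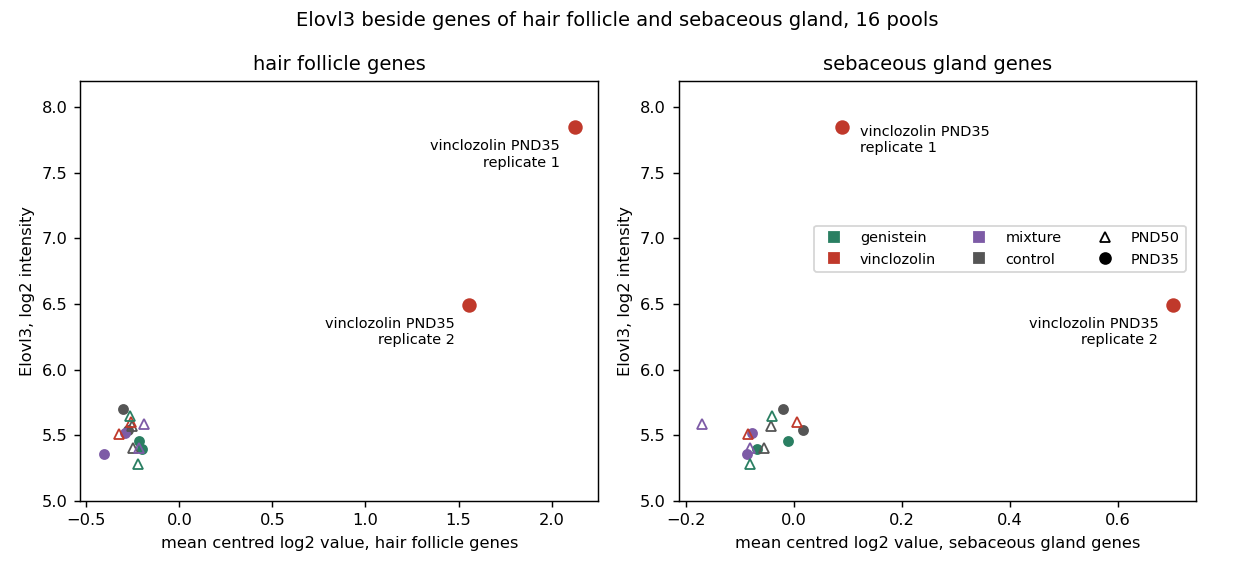
Log2 intensity of Elovl3 in each of the 16 pools against the mean centred log2 value of 21 hair follicle genes (left) and 12 sebaceous gland genes (right). Vinclozolin PND35 replicate 1, highest for Elovl3 at 7.85, is highest for the hair list at 2.12, while replicate 2 is highest for the sebaceous list at 0.70.

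Ucp1, the heat-making uncoupling protein, was low in every pool and was called in no comparison. At PND50, Ucp1 was at 5.07 and 5.36 in genistein pools, 5.17 and 5.41 in vinclozolin pools, 5.35 and 5.35 in mixture pools and 5.11 and 5.38 in control pools. At PND35, it was at 5.28 and 4.99 in genistein pools, 5.35 and 5.19 in vinclozolin pools, 5.03 and 5.04 in mixture pools and 5.19 and 5.01 in control pools. The ages overlapped, and the whole spread over 16 pools was 0.413, with 40.4% of genes spanning less. In a limma fit without the filter, the smallest adjusted p among 18 comparisons was 0.0951, for mixture-exposed rats at PND50 over PND35 (0.32). In the filtered fit, 32.7% of genes were called in this comparison. The average over exposures was 0.14 at PND50 over PND35 (SE 0.07, limma adjusted p = 0.114 without the filter).

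Dio2, the thyroid hormone activating deiodinase, was called in no comparison. At PND50, Dio2 was at 6.02 and 6.11 in genistein pools, 6.06 and 6.19 in vinclozolin pools, 5.67 and 5.77 in mixture pools and 6.35 and 6.05 in control pools. At PND35, it was at 6.39 and 6.05 in genistein pools, 6.25 and 6.02 in vinclozolin pools, 6.04 and 5.73 in mixture pools and 6.35 and 5.93 in control pools. The mixture group had the lowest mean at each age, and its pools overlapped those of the other groups at PND35. The mixture minus control difference at PND50 was -0.48 (SE 0.16, 95% interval -0.84 to -0.12), with an unadjusted p of 0.0128 and an adjusted p of 0.567 by limma. The mixture minus vinclozolin difference at PND50 was -0.40 (SE 0.16, limma adjusted p = 0.380). These 2 were the only Dio2 comparisons of 18 with an unadjusted p under 0.05, they share the mixture pools, and neither passed the adjustment. The share of genes called was 0.00848% for mixture over control and 0.0339% for mixture over vinclozolin at that age. Between ages, Dio2 averaged -0.07 at PND50 relative to PND35 (SE 0.08, limma adjusted p = 0.526).

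Ppargc1a, the coactivator gene, was also called in no comparison, and its smallest adjusted p was 0.190. At PND50, Ppargc1a was at 5.92 and 5.71 in genistein pools, 5.92 and 5.92 in vinclozolin pools, 5.78 and 5.78 in mixture pools and 5.83 and 5.71 in control pools. At PND35, it was at 5.53 and 6.13 in genistein pools, 5.89 and 6.03 in vinclozolin pools, 5.89 and 6.26 in mixture pools and 5.73 and 5.71 in control pools. The spread was wider at PND35, where both the lowest and the highest pool lay, than at PND50. The mixture minus control difference at PND35 was 0.36 (SE 0.16, 95% interval -0.0042 to 0.72, limma adjusted p = 0.332). The average at PND50 relative to PND35 was -0.07 (SE 0.08, limma adjusted p = 0.486).

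The level of skeletal muscle genes varied between pools, and it followed Ppargc1a in some of them. The mean centred level of the fast and slow muscle genes ran from -1.28 to 0.98 (median -0.66) over the 8 PND50 pools and from -0.10 to 1.88 (median 0.21) over the 8 PND35 pools. The highest pool was mixture PND35 replicate 2, which was also highest for Ppargc1a, at 6.26, and for Cox8b, a cytochrome oxidase subunit of muscle and brown fat, at 7.42. Genistein PND35 replicate 2, at 6.13 for Ppargc1a, had a muscle level of 0.67. Vinclozolin PND50 replicate 1 had the muscle level next to the highest, 0.98, with Ppargc1a at 5.92, and vinclozolin PND35 replicate 2 had Ppargc1a at 6.03 with a muscle level of 0.08. With the muscle level as a covariate, the Ppargc1a age difference was 0.10, against -0.07 without it, and it passed in neither fit. The part of muscle RNA in these values was not tested further.

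**Figure D3:**
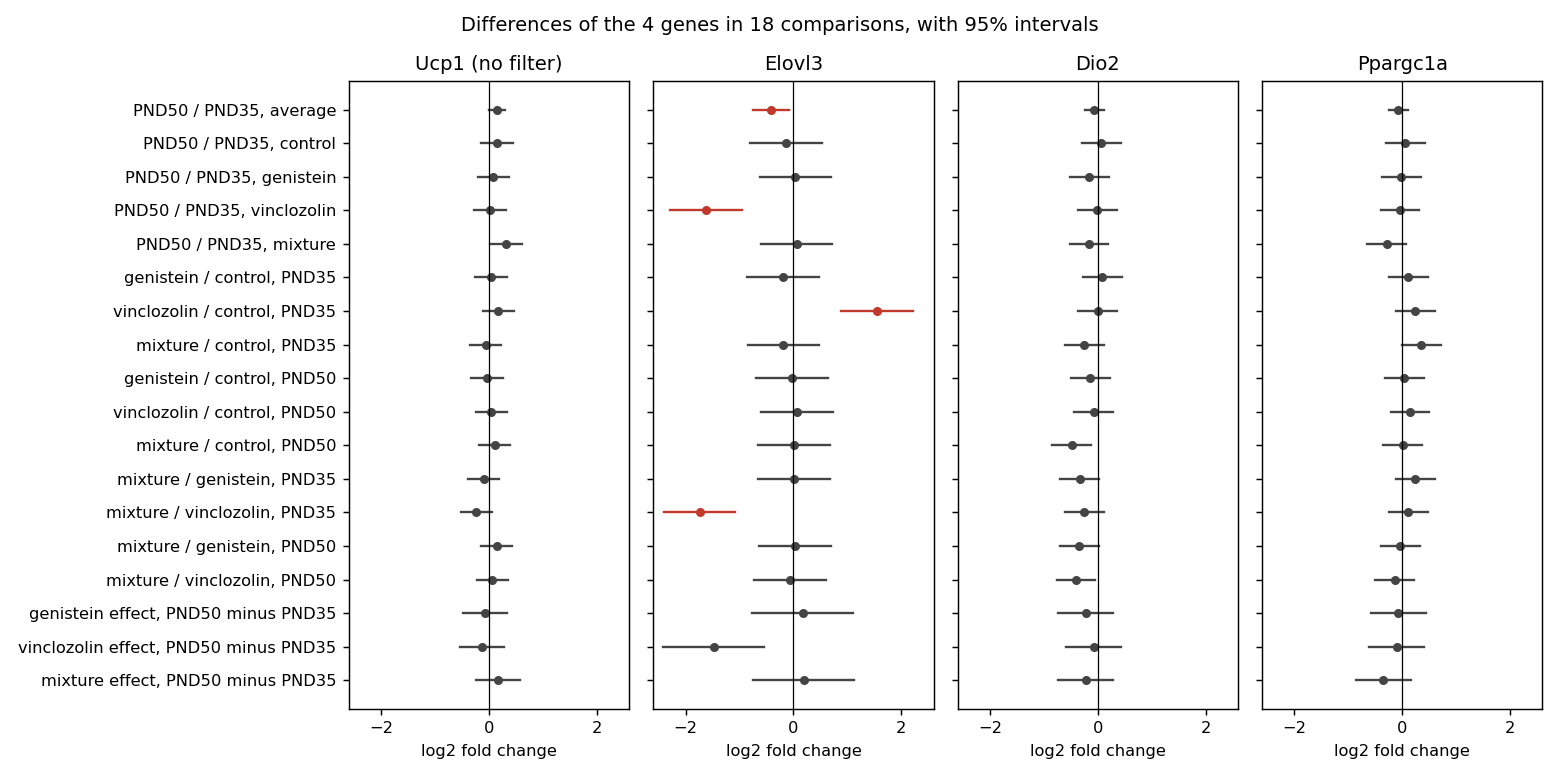
Log2 fold changes of the 4 genes in 18 comparisons, with 95% intervals from limma; red marks an adjusted p under 0.05, and the Ucp1 values come from the fit without a filter. Red appears for Elovl3 alone, in 4 comparisons, the furthest from 0 being mixture over vinclozolin at PND35 (-1.74). The Elovl3 values come from the filtered fit, which Elovl3 entered only through the vinclozolin PND35 pools, and all 4 comparisons use those pools.

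None of the other exposure comparisons called a member. The share of all genes tested that were called was 0% for genistein over control at PND35 and at PND50, for vinclozolin over control at PND50 and for mixture over control at PND35. It was also 0% for mixture over genistein at PND35, and for the genistein and mixture effects between ages, so none of the genes tested passed there. It was 0.0254% for mixture over genistein at PND50. Between ages, 0.865% of genes were called in control rats and 2.77% in genistein-exposed rats.

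Of the further brown fat genes, 2 of 15 tested were higher and 1 was lower at PND50, with a median difference of 0.03. Over all genes tested in this age average, 44.6% were called, 19.4% higher and 25.2% lower, and the median was -0.01. The counts of the gene lists that follow stand beside these shares, with no test of any list against them. Clstn3, calsyntenin, rose by 0.38 (limma adjusted p = 2.4e-04) and Gk, glycerol kinase, rose by 0.25 (adjusted p = 0.0012). Cpt1b, the muscle and brown fat carnitine palmitoyltransferase, fell by 0.31 (adjusted p = 0.0327), beside the lower muscle level at PND50. Cox8b was -0.34 and did not pass (adjusted p = 0.0954). Adrb3, the beta-adrenergic receptor of fat cells, was 0.03 (adjusted p = 0.732), and Otop1 and Kcnk3, channel genes of brown fat, were 0.29 and -0.10 and did not pass. In none of the 6 comparisons of an exposure with its control did a gene of this list pass.

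**Figure D4:**
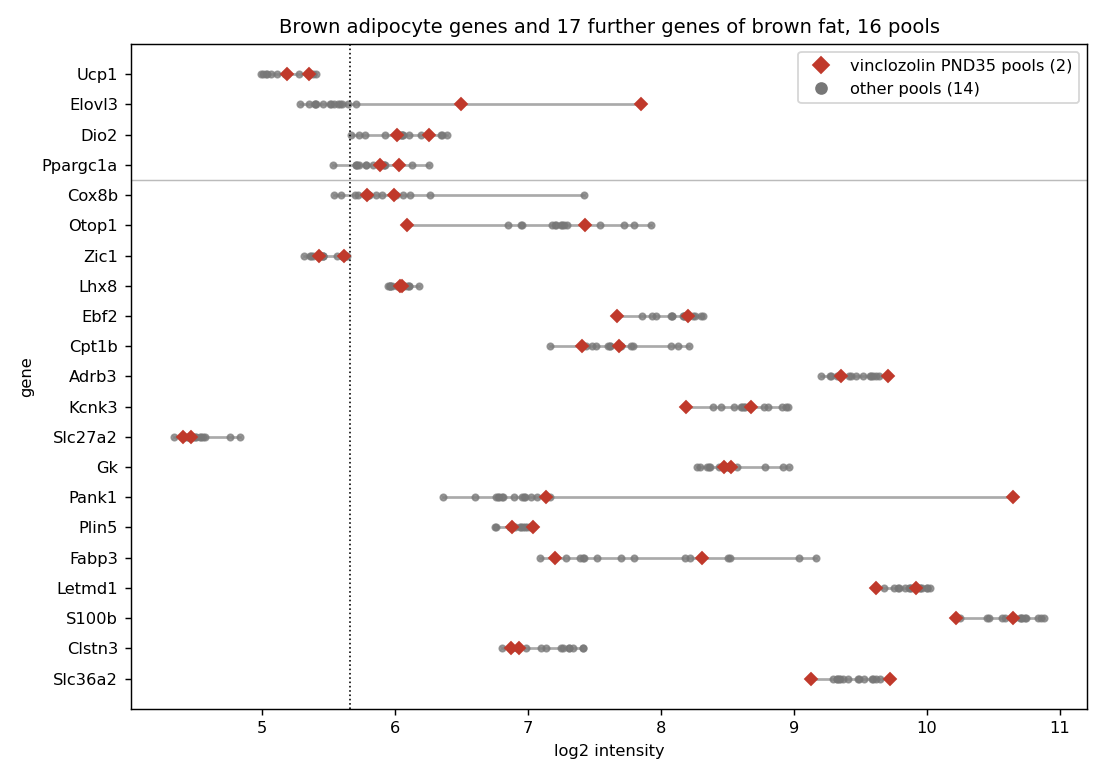
Log2 intensity of the 4 genes and of 17 further brown fat genes in 16 pools; red diamonds are the vinclozolin PND35 pools, grey dots the other 14, and the dotted line is the filter at 5.66. Of these genes only Elovl3 has both diamonds right of every grey dot, and for Pank1 1 diamond, at 10.65, lies far from the rest.

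Beige adipocyte genes are expressed in heat-making cells that arise within white fat. Of 7 tested, 4 were called, beside 44.6% of all genes: Epsti1 (0.36) and Tnfrsf9 (0.20) rose, while Hoxc9 (-0.22) and Car4 (-0.26) fell at PND50. Of 8 tested genes of Ucp1-independent heat 3 were called, again beside 44.6%: Gatm, which makes the precursor of creatine, rose by 0.52 and Slc6a8, the creatine transporter, rose by 0.18, while Pm20d1, which makes N-acyl amino acids, fell by 0.20.

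Upstream of Ucp1, 6 of 12 tested adrenergic and cyclic AMP genes were lower at PND50 and 1 was higher, with a median of -0.10, beside 25.2% of all genes lower and 19.4% higher. Pde3b, a phosphodiesterase that breaks down cyclic AMP in fat cells, fell by 0.61 (limma adjusted p = 1.8e-04) and Prkar2b, a regulatory subunit of protein kinase A, fell by 0.30. Adcy3 and Adcy6, which make cyclic AMP, fell by 0.22 and 0.21. Prkaca and Mapk14, kinases downstream, fell by 0.13 and 0.11, and Atf2, a transcription factor, rose by 0.13.

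Around Dio2, the thyroid hormone receptors Thra (0.03) and Thrb (0.01) did not pass, and 1 of 6 tested genes other than Dio2 was called: Slc16a10, a transporter of aromatic amino acids and thyroid hormone, fell by 0.30 at PND50. Around Ppargc1a, 3 of 17 tested partners and targets rose (Mef2d by 0.23, Esrrg by 0.21 and Esrrb by 0.16) and 5 fell, so that the 8 called of 17 were a share near the 44.6% of all genes. Those that fell were Pparg by 0.31, Gabpa by 0.24, Tfam by 0.17, Ppara by 0.16 and Rxra by 0.12. Esrra, the orphan receptor most closely tied to PGC-1alpha, was 0.04 and did not pass.

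Downstream of the heat programme, 10 of 20 lipolysis and fatty acid oxidation genes fell at PND50 and 0 rose, with a median of -0.19, beside 25.2% of all genes lower and 19.4% higher. Acadm and Acadl, acyl-CoA dehydrogenases, fell by 0.41 and 0.36, Abhd5, the coactivator of fat triglyceride lipase, fell by 0.37 and Hadhb of the trifunctional protein fell by 0.32. White adipocyte genes had 7 of 20 lower, 1 higher and a median of -0.21, so 8 of 20 were called, near the 44.6% of all genes. Cebpa fell by 0.46, Acacb rose by 0.54, and Adipoq was -0.08 without passing. All 13 fast muscle genes tested fell, with a median of -1.33, as did 2 of 9 slow muscle genes, and 10 of 15 luminal epithelial genes rose, with a median of 0.24. These averages hide differences between exposures. The fast muscle median was -1.28 in control, -1.69 in genistein-exposed, -2.93 in mixture-exposed and 0.59 in vinclozolin-exposed rats. In that order, 0, 1, 13 and 0 of the 13 were called. The luminal median was -0.10 in genistein-exposed rats and 0.20 to 0.47 in the others. The part of tissue make-up in the age differences was not tested.

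The relatives of the members are also read beside the 44.6% of all genes called. Of 3 elongases tested, 1 was called: Elovl5 fell by 0.18 at PND50, while Elovl6 (0.59) and Elovl2 (0.02) did not pass. Elovl5 was at 11.79 and 12.08 in the vinclozolin PND35 pools, both above the other 14 (11.32 to 11.79). Its average fall includes those pools, and the fall without them is not given here. Of the CIDE and perilipin genes, the family of Cidea and its droplet partners, Cideb rose by 0.17, and Fitm1 (-0.43), Fitm2 (-0.33), Bscl2 (-0.16) and Plin3 (-0.16) fell, so 5 of 9 tested were called. Bscl2 too was higher in both vinclozolin PND35 pools (8.02 and 8.29) than in the other 14 (7.58 to 7.95). Cidec, the white fat member of the family, was -0.09 and did not pass. Of 7 uncoupling protein relatives 5 were called: Ucp2 rose by 0.17, while Ucp3, the muscle form, fell by 0.20, Slc25a30 by 0.31, and the adenine nucleotide carriers Slc25a4 and Slc25a5 by 0.43 and 0.34.

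Over the 16 pools, the genes whose pattern was most like that of Elovl3 were Krtap5-8, Padi3, Tgm3, Krtap16-5 and Krt35, with Pearson's r of 0.974, 0.969, 0.961, 0.959 and 0.957. These values rest on the vinclozolin PND35 pools, since r for Krtap5-8 was 0.07 over the other 14. Sost (0.845) and Gzmm (0.823) were most like Ucp1, Rpph1 (0.799) and Sfxn2 (0.776) most like Dio2, and Nxt2 (0.828) and Mettl14 (0.765) most like Ppargc1a. The pools share arrays and scaling across genes, and these correlations are descriptions of 16 pools.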

How the data were processed

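The authors deposited log2 intensities, already summarized to 27342 probe sets on 16 arrays; the log2 scale is read from the values (2.20 to 13.95). Per the labels' protocols, targets were biotin-labelled with an Affymetrix kit. The background correction, normalization and summarization methods: not given in the sources used here. RNA came from individual glands and was pooled from 5 animals, per the labels' protocols. The platform annotation gave 15097 probe sets 1 gene symbol, 323 several and 11922 none. The probe set with the highest mean stood for each gene.

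Genes with a mean above the 25th percentile (11796) were fitted with limma (3.58.1, R 4.3.3): 8 group means, all arrays, moderated tests in 18 comparisons, Benjamini-Hochberg adjustment over all genes tested, threshold 0.05. The procedure was tested on simulated data. Numbered replicates were not paired: deviations correlated between -0.27 and 0.18 over pairs of groups. List levels are means of values centred per gene.

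The text names the members, the 5 genes closest to each by Pearson correlation, and list genes past the test or up to 4 others with the smallest p in the age average; other named genes were chosen after their values were seen. The members and lists were chosen with earlier results of these data known, and the hair follicle and sebaceous lists after the values were seen. As alternatives, the filter was dropped or set at the 50th percentile, arrays were centred on their medians or quantile normalized, probe sets of a gene were averaged, the muscle level or the replicate number entered the model, arrays were weighted, the trend and robust options were used, and each pool was left out in turn.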

Additional observations from a re-analysis of the deposited data

How the results depend on the processing

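The Elovl3 calls depended on which pools were fitted. The fits described here kept the filter set from all 16 arrays, which Elovl3 passed only through the vinclozolin PND35 pools. With the filter dropped and all pools kept, Elovl3 was called in the same comparisons. In the age average, the number of members called was 1 as reported and 0 with an intensity trend and robust fitting (Elovl3 adjusted p = 0.0608), with the muscle level as a covariate (Elovl3 -0.63, adjusted p = 0.173), and without both vinclozolin PND35 pools. Leaving out 1 pool at a time, it was 0 to 1 in the age average (0 in 13 of 16 fits), 0 to 1 for vinclozolin over control at PND35 (0 in 8), 0 to 1 for PND50 over PND35 in vinclozolin-exposed rats (0 in 2) and 0 to 1 for mixture over vinclozolin at PND35 (0 in 1). For the vinclozolin effect between ages, reported as 0, it was 0 to 1, with 1 in the fit without vinclozolin PND35 replicate 2. Elovl3 ranged over these fits from 0.87 to 2.23 for vinclozolin over control at PND35, from -2.29 to -0.94 between ages in vinclozolin-exposed rats, from -2.42 to -1.06 for mixture over vinclozolin at PND35 and from -0.58 to -0.25 in the age average. A sign changed only for differences that never passed: Ppargc1a in the age average was 0.10 with the muscle covariate and ran from -0.15 to 0.0015 with 1 pool left out, and Dio2 for vinclozolin over control at PND35 was 0.0086 after quantile normalization and ran from -0.21 to 0.21 with 1 pool left out. The cause of these changes was not tested. The replicate number was also entered as a block (a replicate block), though numbers do not pair the pools. In that filtered fit, Elovl3 was 1.55 for vinclozolin over control at PND35 (limma adjusted p = 0.0352), and the block changed no call. No member remained to test with the 50th percentile filter. Ucp1 was under the filter in every pool, and its signal was not set against a background measure. Where 1 pool was left out, the lone pool of its group was assumed to vary like the other groups. For Elovl3, leaving out either vinclozolin PND35 pool also removed the spread between them (SD 0.96). A call kept or gained in those fits is therefore no support for it.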

Other observations

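Pank1, a pantothenate kinase that starts coenzyme A synthesis and a further brown fat gene, was at 7.13 and 10.65 in vinclozolin PND35 replicates 1 and 2, against 6.36 to 7.17 in the other 14 pools. The difference from control at PND35 was 1.99 (SE 0.73) and did not pass (limma adjusted p = 0.244). In the same replicate 2, Pank1 alone of 17 further brown fat genes was above all the other 15 pools and 6 were below them (Otop1, Ebf2, Kcnk3, Letmd1, S100b and Slc36a2). Of the 20 white adipocyte genes, 9 were below all other 15 pools in that replicate, among them Adipoq, Lep and Plin1, and 1, Retn, was above. Over all 14324 named genes, 6.65% were above and 13.1% below all other 15 pools in replicate 2, and in replicate 1 the shares were 4.48% and 4.45%. Of the 12 sebaceous genes, 5 were above all other 15 pools in replicate 2 (Mc5r, Acsbg1, Soat1, Fa2h and Elovl5) and 2 were below (Scd and Plin2). In replicate 1, 19 of the 21 hair follicle genes were above all other 15 pools, and so were 4 white adipocyte genes (Slc2a4, Dgat2, Agpat2 and Gpd1). So were 3 of the 17 further brown fat genes (Adrb3, Plin5 and Slc36a2) and 2 of the 12 sebaceous genes (Dgat2l6 and Scd). None of these lists had a gene below all other 15 pools in replicate 1. These genes were chosen after their values were seen, and the counts are descriptions of single pools.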
